A study of Mus musculus with 10 samples.

Results

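Complement genes were examined in skin of C3H/HeJ mice grafted with alopecic skin. The set held 9 genes: C1qa, C1qb, C1qc, C2, C3, C4b, Cfb, C3ar1 and C5ar1. Members were taken as every probe set that the platform annotation gives exactly 1 symbol from that list. This gave 14 probe sets for 7 genes, out of 45037 probe sets tested. C3 was not analysed here, and C4b was left out because its probe set also names C4a. In this model of alopecia areata (AA), unaffected C3H/HeJ mice receive skin from a donor of the same strain that lost its hair spontaneously, and hair loss follows in the recipients. All 10 mice had the same strain and the same kind of graft, and each wore an osmotic pump from the day of grafting. In 5 of them the pump gave baricitinib, which blocks JAK1 and JAK2, and in 5 it gave vehicle. Whole skin was sampled at week 12, with 1 array a mouse; the labels give neither sex nor age. Ungrafted skin was not analysed here, so the comparison is between drug and vehicle alone. In whole skin fewer cells of a type and less RNA per cell cannot be told apart.

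Complement is a cascade of plasma and tissue proteins that tags targets for uptake, recruits leukocytes and can lyse cells. C1q, built from the A, B and C chains that C1qa, C1qb and C1qc encode, binds antibody complexes and dying cells and starts the classical pathway; in tissues it is made mainly by macrophages and dendritic cells. C2 is the serine protease of the classical convertase, and factor B, encoded by Cfb, is its counterpart in the alternative pathway. The cascade releases the small peptides C3a and C5a, which act on leukocytes through the receptors that C3ar1 and C5ar1 encode. Interferons, which signal through JAK kinases, induce C2 and Cfb in many cell types. Skin makes a number of these components locally, whereas the liver supplies most of the plasma pool.

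The chains of C1q are encoded by neighbouring coding genes on mouse chromosome 4, in the order C1qb, C1qc, C1qa, and Cfb and C2 are neighbours on chromosome 17. Of the 7 measured genes 4 had a promoter window in the RefSeq table for GRCm38.p6. They are shown because the data below set the C1q chains beside each other and C3ar1 beside C5ar1. Each is the 250 bases before the gene's start, read 5′ to 3′ along the gene. All lie on the minus strand, C1qb at chr4:136886201-136886450, C1qc at chr4:136892915-136893164, C3ar1 at chr6:122856158-122856407 and C5ar1 at chr7:16259339-16259588. Capitals mark the core of ETS factor sites, AGGAA on either strand; the ETS family includes PU.1, a regulator of myeloid genes.
C1qb: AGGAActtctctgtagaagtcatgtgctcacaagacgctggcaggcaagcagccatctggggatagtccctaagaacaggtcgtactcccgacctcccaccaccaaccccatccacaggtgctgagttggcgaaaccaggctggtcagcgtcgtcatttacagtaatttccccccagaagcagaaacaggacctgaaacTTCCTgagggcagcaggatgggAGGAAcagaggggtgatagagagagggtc
C1qc: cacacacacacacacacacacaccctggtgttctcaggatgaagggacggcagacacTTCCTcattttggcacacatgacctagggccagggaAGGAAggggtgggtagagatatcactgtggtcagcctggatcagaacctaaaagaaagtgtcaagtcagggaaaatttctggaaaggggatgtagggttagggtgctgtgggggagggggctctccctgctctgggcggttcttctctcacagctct
C3ar1: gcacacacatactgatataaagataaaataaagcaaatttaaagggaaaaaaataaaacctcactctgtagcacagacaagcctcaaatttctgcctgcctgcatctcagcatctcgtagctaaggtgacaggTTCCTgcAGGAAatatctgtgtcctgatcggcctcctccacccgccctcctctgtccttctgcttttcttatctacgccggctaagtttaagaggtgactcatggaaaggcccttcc
C5ar1: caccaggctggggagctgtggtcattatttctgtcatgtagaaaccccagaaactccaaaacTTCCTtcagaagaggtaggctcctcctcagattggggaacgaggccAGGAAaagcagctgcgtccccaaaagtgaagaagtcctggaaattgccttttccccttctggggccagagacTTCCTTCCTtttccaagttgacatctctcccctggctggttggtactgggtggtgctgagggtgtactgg
The ETS core occurred 3 times before C1qb, 2 times before C1qc, 2 times before C3ar1 and 4 times before C5ar1. At least 1 such core was in 60.3% of all 32851 windows of the table, so its presence does not set these genes apart. The motif of STAT dimers (GAS, searched as TTCNNNGAA on both strands) was in 0 of the 4 windows, against 7.02% of all windows. The core of the interferon-stimulated response element (searched as GAAANNGAA on both strands) was in 1 of the 4, that of C5ar1, against 7.13% of all.

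Facts of the whole series bear on every value below. The median correlation of an array with the others was 0.958 to 0.981, except for vehicle replicate 5, at 0.705. RNA integrity also differed by group. The 3'/5' gap, the log2 difference between the 3' and 5' control probe sets of Gapdh and beta-actin, widens as RNA is degraded. It lay between 0.99 and 1.18 on the baricitinib arrays. On vehicle arrays it was 3.03, 1.998, 4.35, 1.01 and 4.06 for replicates 1 to 5, so vehicle replicate 4 alone matched the treated arrays. The defining keratins of epidermis, Krt5, Krt14, Krt1 and Krt10, were bright in every sample, which fits the skin label (epidermal marker median 11.94 to 12.96 log2 over the 10 arrays).

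Mean values of C3ar1, the C3a receptor, were lower after baricitinib than after vehicle at its 3 probe sets (differences of -1.24 to -0.43 log2). Those of C1qa and of the C5a receptor C5ar1 at 1439902_at were higher after baricitinib (1.80 and 0.68), and probe sets of C1qb and C2 lay on either side of 0. None of these differences passed the adjusted threshold when all arrays counted equally.

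With all 10 arrays weighted equally no complement probe set passed an adjusted p of 0.05, and neither did any of the 45037 probe sets (0 called, 0%). Of the 14 complement probe sets 8 had a lower and 6 a higher mean in baricitinib treated skin, with a median difference of -0.22 log2 (baricitinib minus vehicle), against -0.07 and 55.4% lower over all probe sets. With 1 probe set a gene, that of highest mean, the median was 0.68, and -0.17 without vehicle replicate 5, so its sign turned both on how probe sets were counted and on 1 array. At an unadjusted p under 0.05, 3 of 14 were lower, against a background of 5.62%, and 1 was higher, against 9.21%. These were C2 1441912_x_at, C3ar1 1419483_at and C3ar1 1442082_at below, and C5ar1 1439902_at above. With array weights, which let arrays that stand apart count for less, the same 10 arrays gave 7 called complement probe sets, all lower in treated skin (background 10.6% lower and 10.9% higher): the 3 of C3ar1 and the x_at probe sets of C1qb and C2. The weights were 0.0289 for vehicle replicate 5, 0.50 for vehicle replicate 4 and 5.43 for baricitinib replicate 1. On the other arrays they were 1.09 to 2.05, so that fit did more than mute 1 array. In 0 of 14 did the groups not overlap; over all probe sets that share was 2.03% for lower and 3.09% for higher values in treated skin.

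Vehicle replicate 5 was the lowest vehicle array at 10 of the 14 probe sets and the lowest of all arrays at 7. Leaving it out again gave 0 calls among complement probe sets and 0% over all (limma adjusted p from 0.0733 for C3ar1 1442082_at to 0.776 for C5ar1 1422190_at). On these 9 arrays 10 of 14 had a lower mean in treated skin, the median difference was -0.50 log2 (against -0.04 over all probe sets), and 7 were lower at an unadjusted p under 0.05, against a background of 13.5%. These 7 were all 3 probe sets of C3ar1, both x_at probe sets of C1qb and both x_at probe sets of C2. Higher values at that p numbered 0 of 14, against 14.4%. Groups did not overlap at 2 of 14, C1qb 1434366_x_at and C3ar1 1442082_at, each lower in treated skin (background 4.11% lower and 4.42% higher, the latter with 0 members). Without vehicle replicate 4, the vehicle array whose RNA matched the treated arrays, 1.88% of all probe sets were called and 0 of 14 complement probe sets.

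**Figure D1:**
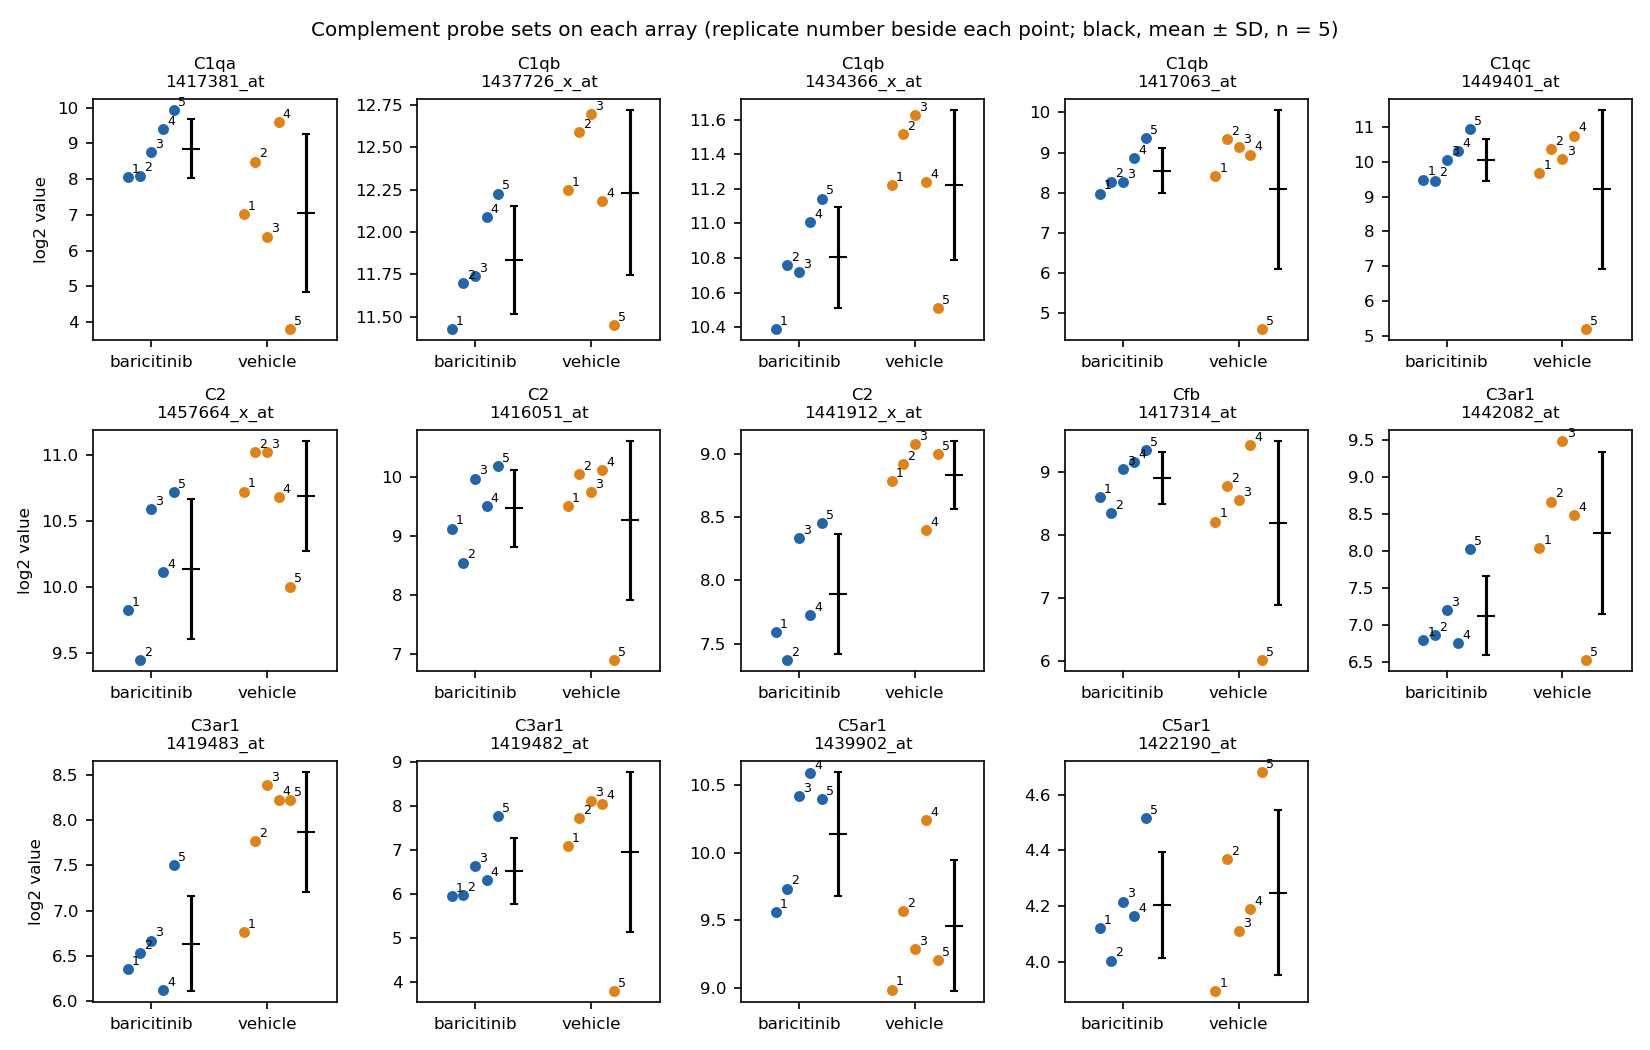
Log2 value of each complement probe set for baricitinib (blue) and vehicle (orange) mice, with points numbered by replicate and black marks for the mean ± SD of a group (n = 5). The vertical scale differs by panel. Vehicle replicate 5 lay far below the other arrays for C1qa, C1qb 1417063_at, C1qc, C2 1416051_at, Cfb and C3ar1 1419482_at, and baricitinib replicate 5 was the highest treated array in 13 of 14 panels.

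Of the 4 genes with several probe sets, only C3ar1 had 1 sign in all of them with all 10 arrays. Without vehicle replicate 5 each of the 4 had 1 sign, lower for C1qb, C2 and C3ar1 and higher for C5ar1. For C5ar1 this rested on 1422190_at, a dim probe set at the 25.1 percentile with a difference of 0.06 ± 0.14 (SE), so its sign was not settled. C3ar1 encodes the receptor for C3a, expressed by myeloid cells and mast cells, and its 3 probe sets had a lower mean in treated skin. Probe set 1442082_at was at 6.79, 6.86, 7.20, 6.75 and 8.02 log2 in baricitinib replicates 1 to 5 and at 8.04, 8.66, 9.48, 8.48 and 6.52 in vehicle replicates 1 to 5. All vehicle arrays but replicate 5 lay above every treated array, although baricitinib replicate 5 missed vehicle replicate 1 only narrowly. The difference was -1.11 ± 0.50 (SE, limma adjusted p = 0.335), and -1.54 ± 0.33 without vehicle replicate 5 (limma adjusted p = 0.0733), or 2.91-fold lower in treated skin.

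Probe set 1419483_at was at 6.35, 6.53, 6.67, 6.12 and 7.50 log2 in treated skin and at 6.76, 7.77, 8.39, 8.23 and 8.22 in vehicle control skin. Here vehicle replicate 5 was not low, and the overlap came from vehicle replicate 1 and baricitinib replicate 5. The difference, -1.24 ± 0.36 (SE, limma adjusted p = 0.230, exact permutation p = 0.0159 unadjusted), hardly moved without vehicle replicate 5 (-1.15). The third probe set, 1419482_at, was at 5.96, 5.97, 6.64, 6.31 and 7.77 in treated skin and at 7.10, 7.73, 8.12, 8.06 and 3.78 in vehicle control skin. Its difference was -0.43 ± 0.79 with all arrays and -1.22 ± 0.38 without vehicle replicate 5 (SE, limma adjusted p = 0.748 and 0.097). The gap between the values of 1419483_at and 1419482_at was 4.44 log2 on that array and -0.34 to 0.56 on the other 9. With the 3'/5' gap as a covariate the differences were -1.36 at 1442082_at, -1.14 at 1419483_at and -1.55 at 1419482_at. Their unadjusted limma p-values were 0.100, 0.061 and 0.19, and the part of RNA quality was not tested.

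C5ar1, which encodes the receptor for C5a on neutrophils and macrophages, had the opposite sign by 1 of its probe sets. Probe set 1439902_at was at 9.56, 9.74, 10.42, 10.59 and 10.40 log2 in baricitinib replicates 1 to 5 and at 8.99, 9.57, 9.29, 10.24 and 9.21 in vehicle replicates 1 to 5. The groups overlapped through vehicle replicates 2 and 4. The difference was 0.68 ± 0.29 (SE, limma adjusted p = 0.321) and 0.62 without vehicle replicate 5. Vehicle replicate 4, the array with a narrow 3'/5' gap, was the highest vehicle array and lay 0.10 above the treated mean, whereas the arrays with wider gaps lay at 8.99 to 9.57. With the gap as a covariate the difference became 0.15, and the part of RNA quality in it was not tested. The other probe set, 1422190_at, was at 3.90 to 4.68 log2 on all 10 arrays, at the 25.1 percentile of mean values, and its groups did not separate (difference -0.04 ± 0.18, SE, limma adjusted p = 0.891). How C3ar1 and C5ar1 differed in response was not tested.

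**Figure D2:**
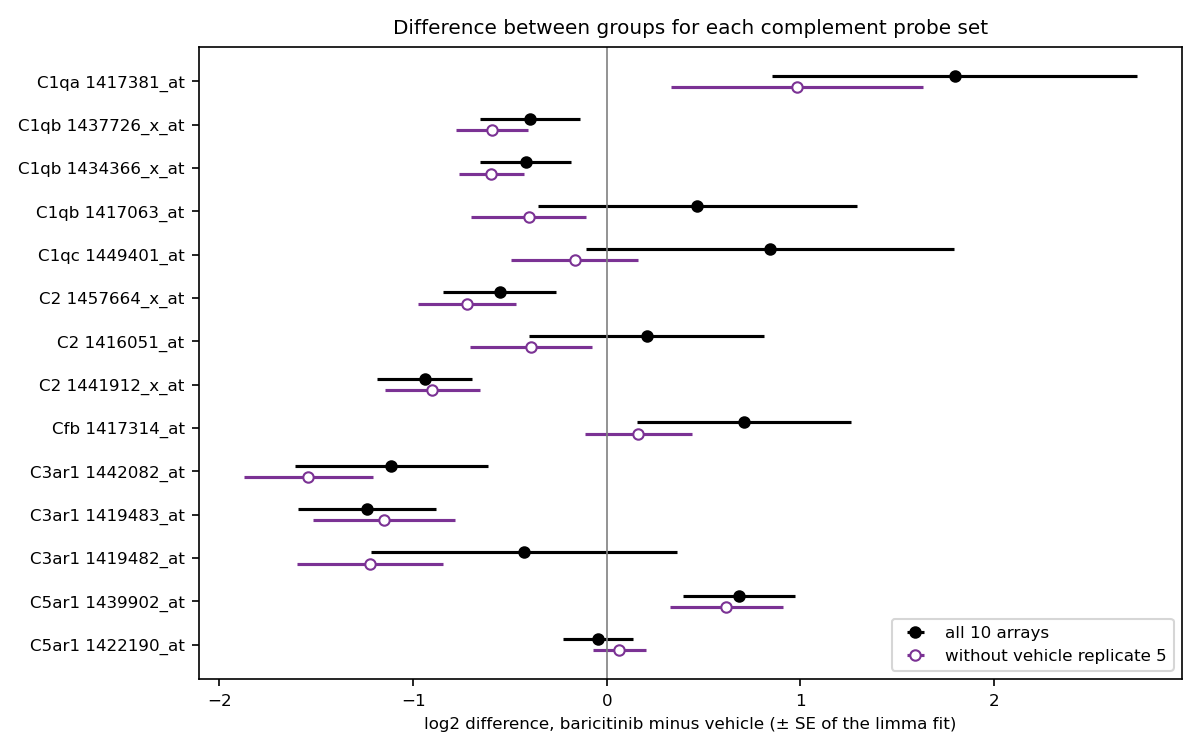
Log2 difference between baricitinib treated and vehicle control skin for each complement probe set (points, horizontal axis), where bars give the SE from limma, filled points use all 10 mice and open points leave out vehicle replicate 5. The 3 C3ar1 probe sets lay below 0 in both fits (-1.24 to -0.43 and -1.54 to -1.15), while C1qb 1417063_at, C1qc, C2 1416051_at and C5ar1 1422190_at changed sign between them.

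The differences of the C1q chains were of either sign. C1qb, the B chain, had 3 probe sets. Probe set 1437726_x_at was at 11.42, 11.70, 11.74, 12.09 and 12.23 log2 in baricitinib replicates 1 to 5 and at 12.25, 12.59, 12.70, 12.18 and 11.45 in vehicle replicates 1 to 5. Vehicle replicates 1 to 3 lay above all treated arrays, vehicle replicate 4 lay between baricitinib replicates 4 and 5, and vehicle replicate 5 lay near the bottom. The difference was -0.40 ± 0.26 (SE, limma adjusted p = 0.439) and -0.59 ± 0.19 without vehicle replicate 5 (limma adjusted p = 0.099).

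Probe set 1434366_x_at was at 10.39, 10.76, 10.72, 11.01 and 11.14 log2 in treated skin and at 11.22, 11.52, 11.63, 11.24 and 10.51 in vehicle control skin. It kept a near constant distance of 0.94 to 1.08 from 1437726_x_at on every array, and its differences were -0.42 and -0.60 (limma adjusted p = 0.402 and 0.0859). The suffix x marks probe sets with probes that can also match other transcripts, so these values may not be those of C1qb alone. Probe set 1417063_at, which does not carry that mark, was at 7.98, 8.28, 8.27, 8.86 and 9.37 in treated skin and at 8.40, 9.33, 9.14, 8.95 and 4.60 in vehicle control skin. Its difference was 0.47 ± 0.82 (SE, limma adjusted p = 0.738) and turned to -0.40 ± 0.30 without vehicle replicate 5 (limma adjusted p = 0.382). Without that array the 3 probe sets of C1qb therefore had 1 sign, at -0.60 to -0.40.

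C1qc, the C chain, was at 9.49, 9.47, 10.07, 10.31 and 10.94 log2 in treated skin and at 9.68, 10.37, 10.08, 10.77 and 5.18 in vehicle control skin. Vehicle replicates 1 to 4 lay within the treated range. The difference was 0.84 ± 0.95 with all arrays and -0.17 ± 0.33 without it (SE, limma adjusted p = 0.598 and 0.756). C1qa, the A chain, had the largest difference of all 14 probe sets, and of the other sign. It was at 8.06, 8.10, 8.77, 9.41 and 9.94 in treated skin and at 7.01, 8.49, 6.39, 9.59 and 3.80 in vehicle control skin, a difference of 1.80 ± 0.94 (SE, limma adjusted p = 0.381) and of 0.98 ± 0.65 without vehicle replicate 5 (limma adjusted p = 0.338).

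Among vehicle arrays C1qa was highest where the 3'/5' gap was narrow: 9.59 at a gap of 1.01, 8.49 at 1.998, 7.01 at 3.03, 3.80 at 4.06 and 6.39 at 4.35. Vehicle replicate 4 lay within the treated range of 8.06 to 9.94. With the gap as a covariate the difference turned to -0.76, and to -0.57 without vehicle replicate 5, neither past the threshold (limma adjusted p = 1 and 0.836). The gap varied almost only among the vehicle arrays, and the part of RNA quality in the C1qa values was not tested.

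**Figure D3:**
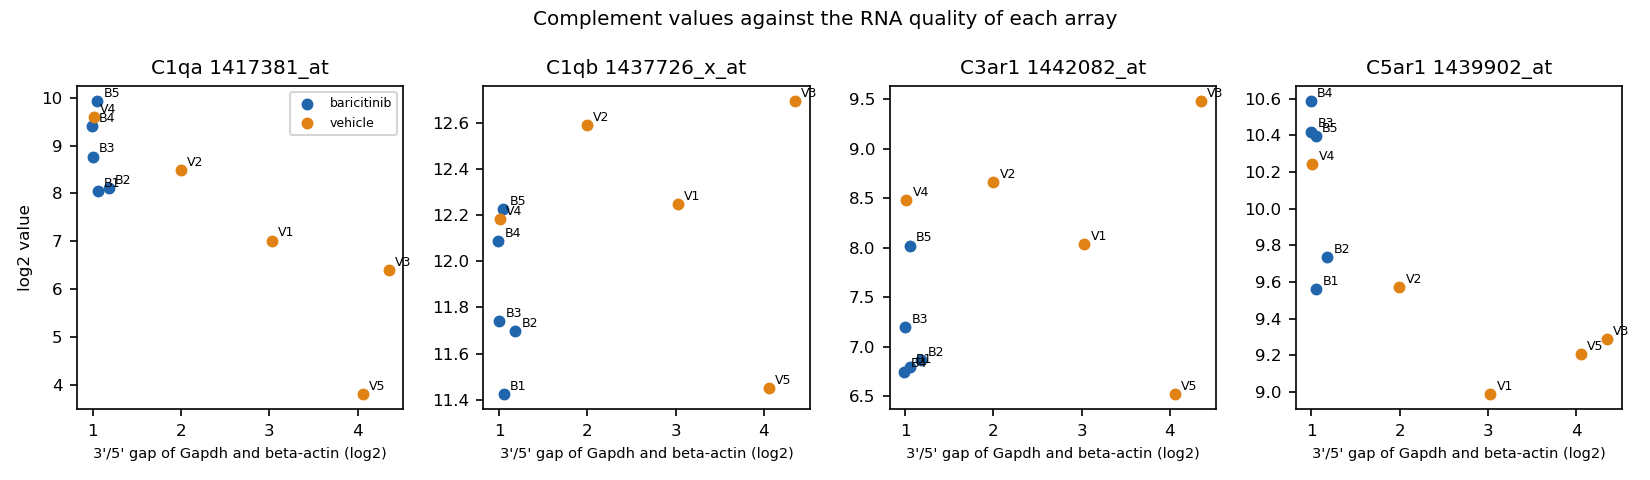
Log2 value of 4 complement probe sets (vertical axes, scales differ by panel) by RNA integrity, given as the 3'/5' gap in log2 (horizontal axes), on baricitinib (B, blue) and vehicle (V, orange) arrays. Treated arrays and V4 share a gap of 0.99 to 1.18; at that gap V4 lay 0.46 above the highest treated array for C3ar1 1442082_at and within the treated range for the other panels.

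C2, the protease of the classical convertase, also differed by probe set. Probe set 1441912_x_at was at 7.59, 7.37, 8.33, 7.73 and 8.45 log2 in baricitinib replicates 1 to 5 and at 8.78, 8.92, 9.08, 8.40 and 8.996 in vehicle replicates 1 to 5. Only vehicle replicate 4 fell within the treated range, just below baricitinib replicate 5. The difference of -0.94 ± 0.24 had the smallest p of the 14 (SE, limma adjusted p = 0.224, exact permutation p = 0.0159 unadjusted), and it was -0.90 without vehicle replicate 5 (limma adjusted p = 0.0836).

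Probe set 1457664_x_at was at 9.83, 9.44, 10.59, 10.11 and 10.72 in treated skin and at 10.72, 11.02, 11.02, 10.68 and 10.003 in vehicle control skin. Its difference was -0.55 ± 0.29 and -0.72 ± 0.25 without vehicle replicate 5 (SE, limma adjusted p = 0.382 and 0.117). Probe set 1416051_at, the one of C2 with no mark for shared probes, was at 9.13, 8.55, 9.98, 9.52 and 10.19 in treated skin and at 9.51, 10.05, 9.75, 10.13 and 6.89 in vehicle control skin. Vehicle replicates 1 to 4 lay within the treated range and vehicle replicate 5 lay below it, with differences of 0.21 ± 0.61 and -0.39 ± 0.31 in the same fits (SE, limma adjusted p = 0.846 and 0.427). The C2 probe set with the smallest p was thus 1 that can match other transcripts. The value of 1416051_at minus that of 1441912_x_at was 0.67 to 1.79 log2 on the other 9 arrays and -2.11 on vehicle replicate 5.

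Cfb, which encodes factor B of the alternative pathway, did not separate the groups. It was at 8.60, 8.34, 9.05, 9.16 and 9.35 log2 in treated skin and at 8.21, 8.77, 8.55, 9.42 and 6.01 in vehicle control skin. The difference was 0.71 ± 0.55 with all arrays and 0.16 ± 0.27 without vehicle replicate 5 (SE, limma adjusted p = 0.489 and 0.715). With the gap as a covariate it was -0.45, so its sign was not settled.

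Baricitinib replicate 5 was the highest treated array at 13 of the 14 probe sets, the exception being C5ar1 1439902_at, where its rank was 3. It exceeded the mean of the other treated arrays by 0.32 to 1.55 log2, most at C3ar1 1419482_at. All 15 measured interferon-induced genes had a lower mean in treated skin (median difference -1.71, 0 called). The same mouse had their highest treated level, with a median of 11.01 log2 against 7.19 to 8.53 in baricitinib replicates 1 to 4. This was within the 10.40 to 11.18 of vehicle replicates 1 to 4; vehicle replicate 5 was at 8.34. Its T cell marker median was 8.92, against 5.79 to 6.78 in the other treated mice and 8.61 to 9.41 in vehicle replicates 1 to 4. Its macrophage marker median was 10.05, against 8.96 to 9.44 in the other treated mice and 9.29 to 9.93 in vehicle replicates 1 to 4. With this mouse and vehicle replicate 5 both left out, a choice made after seeing the data, 3 of 14 complement probe sets were called in limma at the same threshold: C3ar1 1442082_at (difference -1.77, adjusted p = 0.0169), C3ar1 1419482_at (-1.53, adjusted p = 0.0192) and C2 1441912_x_at (-1.04, adjusted p = 0.0478). Over all probe sets 1551 passed in that fit, 2.01% lower and 1.44% higher in treated skin. The arrays left out were the highest treated array at 13 and the lowest vehicle array at 10 of the 14 probe sets. Leaving them out therefore moved most differences down by construction, and these p-values lend no support.

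Vehicle replicate 4 allows a look at matched RNA integrity, though it is 1 mouse and permits no test. Its value lay above every treated array at 5 of 14 probe sets, within the treated range at 9 and below it at 0. The 5 were the 3 C3ar1 probe sets, by 0.29 to 0.73 log2 over the highest treated array, C1qb 1434366_x_at by 0.10 and Cfb by 0.07. The share over all probe sets was not computed for these counts, so they do not set complement apart. The highest correlation of vehicle replicate 4 with another array was 0.994, and that of baricitinib replicate 5 was the same.

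**Figure D4:**
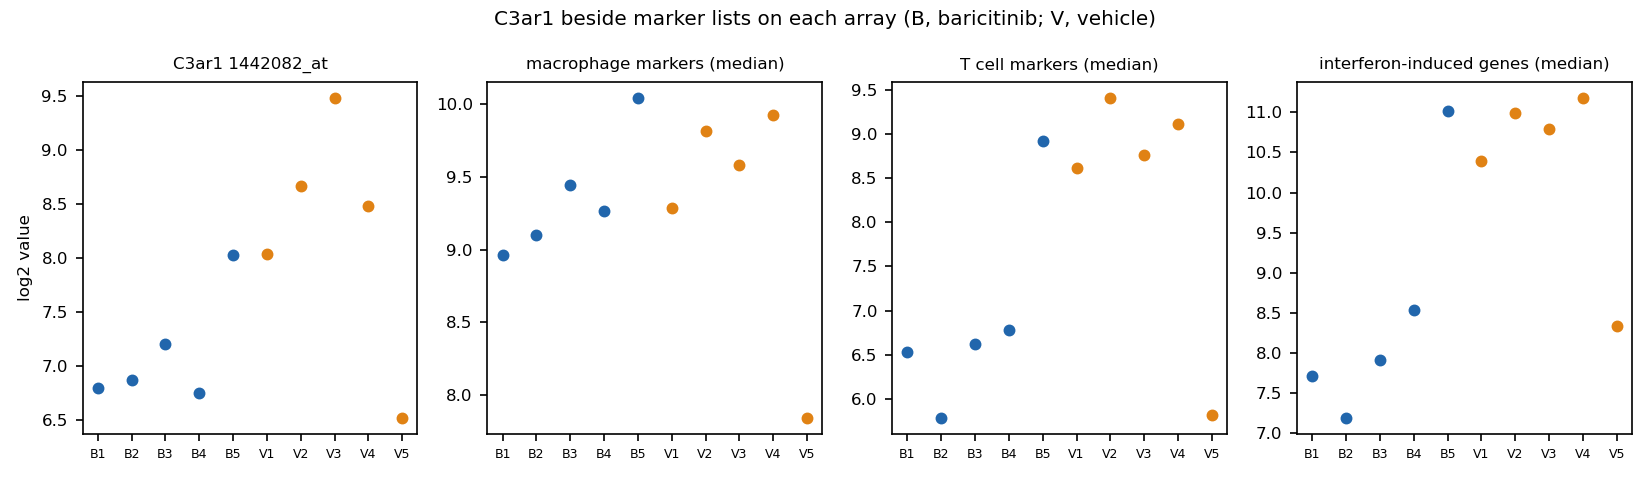
Log2 value of C3ar1 1442082_at and the median log2 value of macrophage, T cell and interferon-induced genes on each array (B, baricitinib, blue; V, vehicle, orange). C3ar1 and the macrophage, T cell and interferon medians were all highest among treated arrays on B5 and low on V5. The macrophage median of 8.96 to 10.05 in treated skin overlapped that of V1 to V4 (9.29 to 9.93), and it was 7.84 on V5.

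Since C1q and both receptors are made by macrophages, the macrophage markers are given beside them. All 12 markers were measured, 5 with a lower and 7 with a higher mean in treated skin (median difference 0.26, and -0.07 without vehicle replicate 5), and 0 passed in either fit. Csf1r, the receptor that maintains macrophages, differed by -0.73 ± 0.20 (SE, limma adjusted p = 0.227), while Cd163, a scavenger receptor of resident macrophages, differed by 1.02 ± 0.31 and the uptake receptor Mertk by 0.81 ± 0.23 (SE, limma adjusted p = 0.239 and 0.230). The list thus held markers on either side of 0. Without vehicle replicate 5, 6 markers were lower and 6 higher. Ms4a7, Aif1 and Fcgr1 then differed by -1.40, -1.34 and -1.12 (limma adjusted p = 0.0738, 0.137 and 0.180). Cd163 and Mertk differed by 1.19 and 0.67 in that fit. At Ms4a7, Aif1 and Fcgr1, as at C3ar1 1442082_at, baricitinib replicate 5 was the highest treated array and vehicle replicate 5 the lowest of all. C3ar1 is also made by mast cells, whose 7 markers all had a higher mean in treated skin (median difference 1.21, range of array medians 8.17 to 10.35 in treated and 5.58 to 8.05 in vehicle control skin, 0 called). Neutrophil markers, of cells that carry C5ar1, had a list median of 3.88 to 6.04 in treated and 4.01 to 4.60 in vehicle control skin. Of its 7 measured members S100a8 and S100a9, which keratinocytes also make, were at the 90.6 and 90.4 percentile and differed by -0.01 and 0.16. The defining genes of liver, source of plasma complement, had a median of 5.03 to 5.35 and 4.84 to 5.84. Among them Ttr, a carrier of thyroid hormone, was at 6.09 to 9.47 in treated and 3.64 to 6.71 in vehicle control skin (difference 2.25 ± 0.79, SE, limma adjusted p = 0.269). Means of other marker lists also differed between groups, with 0 markers called: T cell markers were lower in 7 of 8 (median -0.84), and markers were higher in 7 of 7 for adipocytes (0.96), 6 of 7 for fibroblasts (0.37) and 5 of 6 for skeletal muscle (0.92). The part of cell number in the complement values was not tested.

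By profile over the 10 arrays, each centred on its own mean, the genes nearest to the members were as follows. Nearest to C3ar1 1442082_at were Cd22, a B cell receptor, and Pik3ap1, a signalling adaptor of B and myeloid cells, at root mean square distances of 0.22 and 0.24 log2 (SD of C3ar1 itself 1.001). Psme1, a proteasome activator subunit, and Rab5c lay nearest to C1qc, at 0.23 and 0.27 (SD 1.64). Map11 and the antiviral gene Zc3hav1 lay nearest to C1qb 1437726_x_at, at 0.13 and 0.17 (SD 0.44), and Arhgap30 and Atp10a to C2 1457664_x_at, at 0.16 for each (SD 0.54). The nearest to C1qa were Ly6d and Ier3, at 0.49 and 0.52 (SD 1.83), to Cfb Septin9 and Fbxw17, at 0.15 and 0.17 (SD 0.98), and to C5ar1 1439902_at Mrm3 and Tut1, at 0.20 and 0.22 (SD 0.57). The points share vehicle replicate 5, whose low value enters most of these profiles.

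**Figure D5:**
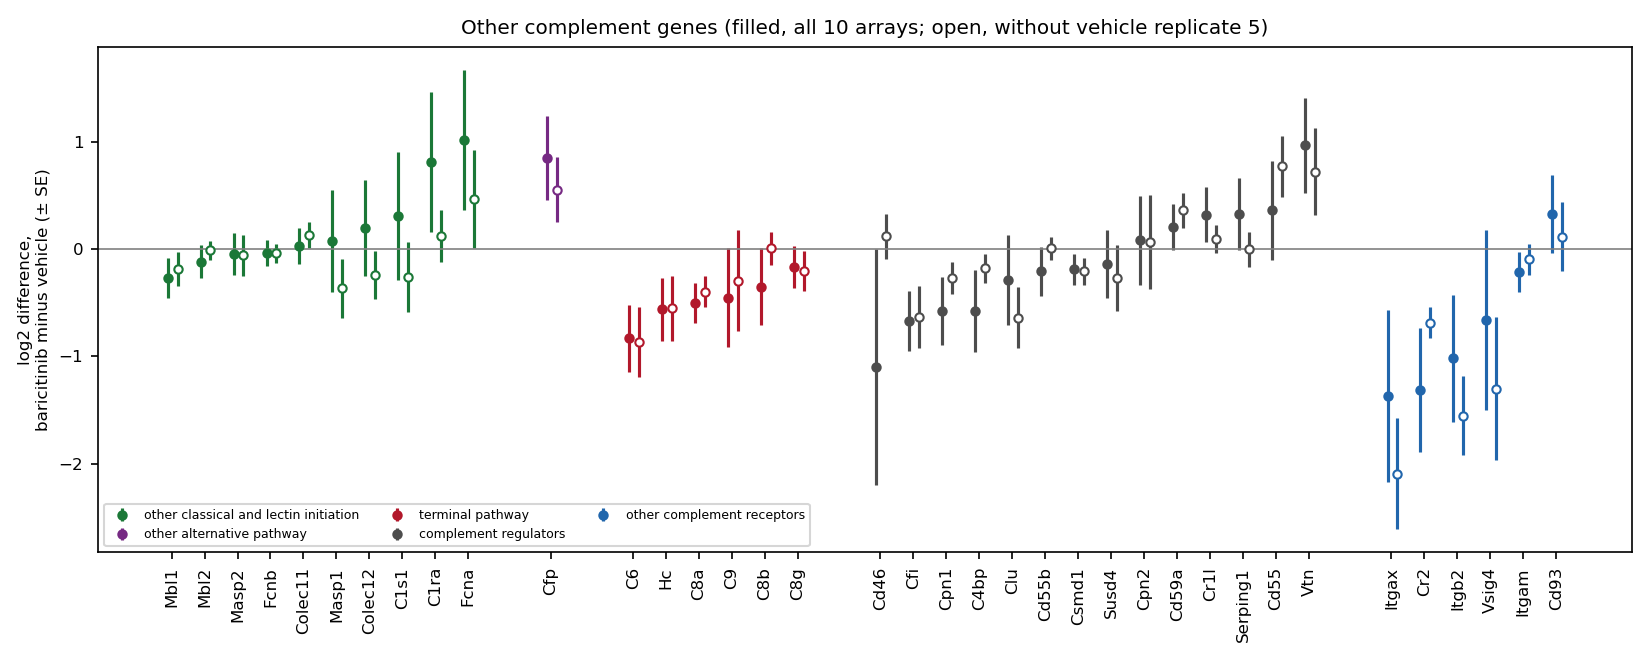
Log2 difference between baricitinib treated and vehicle control skin (± SE of the limma fit) for 37 other complement genes, coloured by list; filled points use all 10 mice and open points leave out vehicle replicate 5. All 6 terminal pathway genes lay below 0 with all arrays, several of them dim. Without vehicle replicate 5 the C8b value of -0.35 became 0.010 and the Cd46 value of -1.10 became 0.12.

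The rest of the cascade was followed through 5 further lists. Of 45 genes listed 37 were measured, each by its brightest probe set; 23 had a lower and 14 a higher mean in treated skin, and 0 passed an adjusted p of 0.05 with all arrays or without vehicle replicate 5. At an unadjusted p under 0.05, 4 of 37 were lower and 0 higher in the limma fit of all arrays (5.62% and 9.21% over all probe sets). The 4 were C6, C8a, Cfi and Cr2. Of these C8a, Cfi and Cr2 were dim, with means at the 17.3, 20.8 and 27.1 percentile of all probe sets. Without vehicle replicate 5 the counts at that p were 6 lower and 2 higher (13.5% and 14.4% over all).

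Of the classical and lectin starters 10 of 13 were measured, 4 lower and 6 higher, with a median difference of 0.06 (-0.05 without vehicle replicate 5). C1ra and C1s1, which encode the proteases bound to C1q, differed by 0.81 and 0.31 with all arrays and by 0.13 and -0.26 without vehicle replicate 5. The lectin gene Fcna, a ficolin of macrophages, differed by 1.02 ± 0.65 (SE, limma adjusted p = 0.436) and by 0.47 without vehicle replicate 5, and Mbl1, a mannose-binding lectin, by -0.27. Properdin (Cfp), which stabilises the alternative convertase, was the 1 measured gene of its list. It was at 8.69, 8.70, 9.37, 9.60 and 9.74 log2 in treated skin and at 8.04, 8.72, 8.55, 9.35 and 7.20 in vehicle control skin, with overlap through vehicle replicates 2 and 4 (difference 0.85 ± 0.39, SE, limma adjusted p = 0.345, and 0.56 without vehicle replicate 5).

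The terminal pathway, whose products build the membrane attack complex, had 6 of 7 genes measured and all 6 with a lower mean in treated skin (median -0.48, and -0.35 with 5 of 6 lower without vehicle replicate 5). C6, a part of that complex, had the largest difference of the list. It was at 7.29, 7.43, 7.73, 8.55 and 8.82 log2 in treated skin and at 9.05, 9.02, 8.87, 8.39 and 8.65 in vehicle control skin. All vehicle arrays but replicates 4 and 5 exceeded every treated array, and the difference was -0.83 ± 0.31 (SE, limma adjusted p = 0.287). C9 differed by -0.45 (-0.30 without vehicle replicate 5), C8a by -0.50 and Hc, the gene of C5, by -0.56. C8a and Hc had means at the 17.3 and 19.9 percentile of all probe sets, and C8g and C8b at the 31.5 and 35.8 percentile. C8b differed by -0.35, with vehicle replicate 5 at 6.60 and the other arrays at 4.50 to 5.22, and by 0.010 without it. The common direction therefore rests in part on dim probe sets.

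Regulators that shield host cells showed no common direction. Of 14 measured, 8 were lower and 6 higher (median -0.16, and 0.0025 without vehicle replicate 5). Cfi, the protease that degrades C3b and C4b, differed by -0.67 ± 0.28, the inhibitor of the attack complex Vtn by 0.97 ± 0.44 and the carboxypeptidase Cpn1 by -0.58 ± 0.32 (SE, limma adjusted p = 0.316, 0.341 and 0.394). For Cpn1, vehicle replicate 5 read 6.31 against 4.19 to 5.08 on the other 9 arrays, and the difference without it was -0.27. Cd46 was at 3.79 to 4.69 log2 on every array except vehicle replicate 5, where it read 10.20, so its difference of -1.10 was that of 1 array.

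Among the other receptors 6 of 7 were measured, 5 with a lower and 1 with a higher mean (median -0.84, and -0.99 without vehicle replicate 5). Itgax and Itgb2 encode the chains of complement receptor 4. Itgax was at 7.22, 6.65, 7.77, 7.31 and 9.60 log2 in treated skin and at 9.24, 9.75, 10.27, 9.95 and 6.20 in vehicle control skin. Baricitinib replicate 5 stood with vehicle replicates 1 to 4, and vehicle replicate 5 with the other treated arrays. The differences were -1.37 ± 0.80 for Itgax and -1.02 ± 0.59 for Itgb2 (SE, limma adjusted p = 0.412 for Itgax and 0.408 for Itgb2), and -2.09 and -1.55 without vehicle replicate 5. Cr2, the complement receptor of B cells, differed by -1.31 ± 0.58 with vehicle replicate 5 at 7.53 and all other arrays at 3.46 to 4.59, and by -0.69 without it (limma adjusted p = 0.330 and 0.0733). Vsig4, the C3b receptor of resident macrophages, ranged from 3.74 to 8.17 over the vehicle arrays and differed by -0.66 ± 0.84 (SE, limma adjusted p = 0.639), and by -1.30 without vehicle replicate 5.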

How the data were processed

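Gene expression was measured in whole skin of 10 mice, 5 given baricitinib and 5 vehicle, grouped by sample title. RNA was amplified and biotinylated with NuGen kits and hybridised to Affymetrix GeneChip mouse arrays. The deposited log2 values came from RMA, run by the authors (background correction, quantile normalisation, median polish) on these arrays alone, with no version stated. RMA evens out the distributions of the arrays before probes are summarised; in the deposited values the SD was 2.71 to 2.79 log2 on 9 arrays and 2.28 on vehicle replicate 5, so that array was not on the same footing. Arrays carry no read depth, so the number of mice limits the precision, and p-values measure the spread between mice. The methods dropped 1 vehicle array that the labels do not name, so all 10 were kept and each was also left out in turn.

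After 64 control probe sets were set aside, 45037 were tested with no filter: 34945 with 1 symbol, 932 with several and 9160 with none, of which only the first kind was named. Baricitinib was compared with vehicle across all probe sets by the lmFit and eBayes functions of limma (3.58.1, under R 4.3.3), with two-sided p-values adjusted by Benjamini-Hochberg over all probe sets and a threshold of 0.05. Exact permutation p-values (two-sided, scipy version 1.17.1) used all 252 assignments of the arrays, the smallest possible p being 0.00794. The members and lists were chosen with earlier results of these data known. Named were every member probe set, the up to 4 largest differences of each other complement list, the 2 genes nearest in profile to each member, and markers needed to state a level. Other lists used a gene's probe set of highest mean. Alternatives were a filter on dim probe sets (above 5 log2 on at least 5 arrays), centring, quantile and cyclic loess normalisation, array weights, trend and robust eBayes, the replicate number as a block, the 3'/5' gap as a covariate, and other ways to join probe sets of a gene. Coordinates belong to the promoter windows, not to the arrays.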

Additional observations from a re-analysis of the deposited data

Results flagged for a closer look

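At 4 of the 14 complement probe sets vehicle replicate 5 stood far below the other vehicle arrays by Dixon's criterion: C1qb 1417063_at (4.60 log2), C1qc 1449401_at (5.18), C2 1416051_at (6.89) and C3ar1 1419482_at (3.78). All 4 outlying values came from that array, among 38 sets of 5 arrays examined (14 probe sets and 5 list medians in each group), and chance flags about 5% of such sets. The array's correlation with the others was 0.729 or less. At these 4 the difference without it is given beside the one with it.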

How the results depend on the processing

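All values here are differences in log2 (baricitinib minus vehicle) or counts. Median centring reversed no complement probe set. The dim filter, trend and robust eBayes and the exact permutation test leave a difference of means unchanged, so no sign could turn there. The mean over the probe sets of a gene had the sign of its brightest probe set wherever there were several. That sign was opposite to C1qb 1417063_at (0.47) and C2 1416051_at (0.21) with all arrays. The replicate numbers did not pair the samples (correlations of same-numbered arrays from -0.23 to 0.09). In this balanced design a replicate block cannot change the differences (median -0.22 as before), and with it 0 complement probe sets were called. Leaving out each array in turn gave 0 to 848 called probe sets in the table, the latter without vehicle replicate 4, and 0 to 0 called complement probe sets. It gave 2 to 7 of these at an unadjusted p under 0.05 and 0 to 2 without overlap. For such counts the share over all probe sets was taken only with all arrays and without vehicle replicate 5. Unadjusted counts of the other fits therefore have no background beside them and are not read further. Signs turned within the leave-one-out ranges of C1qb 1417063_at (-0.40 to 0.78), C1qc (-0.17 to 1.23), C2 1416051_at (-0.39 to 0.44) and C5ar1 1422190_at (-0.13 to 0.064). With array weights, which were 0.0289 for vehicle replicate 5, 0.50 for vehicle replicate 4 and 5.43 for baricitinib replicate 1, 9676 probe sets were called. Of the complement probe sets 7 were called, all 7 lower, and 7 were past an unadjusted p of 0.05. Reversed there were C1qb 1417063_at (-0.63), C1qc (-0.27), C2 1416051_at (-0.47) and C5ar1 1422190_at (0.0036). Cyclic loess reversed C2 1416051_at (-0.081) and C5ar1 1422190_at (0.17), and renewed quantile normalisation the latter (0.14). With the 3'/5' gap as a covariate 0 complement probe sets were past an unadjusted p of 0.05, and reversed were C1qa (-0.76), C1qb 1417063_at (-0.76), C1qc (-0.89), C2 1416051_at (-0.85), Cfb (-0.45) and C5ar1 1422190_at (0.011). Without vehicle replicate 5 as well, 13 were lower and 2 past that p, and C1qa (-0.57), C1qb 1417063_at (-0.45), C1qc (-0.55), C2 1416051_at (-0.65) and Cfb (-0.28) were reversed. Chosen after seeing the data, leaving out vehicle replicates 4 and 5 called 11278 probe sets and 5 complement probe sets, with 9 past the unadjusted p, and reversed C1qb 1417063_at (-0.41), C2 1416051_at (-0.30) and C5ar1 1422190_at (0.080). Leaving out replicate 5 of both groups called 1551 probe sets (2.01% lower and 1.44% higher) and 3 complement probe sets. In that fit 8 were past the unadjusted p, and C1qb 1417063_at (-0.61), C1qc (-0.39) and C2 1416051_at (-0.57) were reversed. With 1 probe set a gene the median was 0.68 with all arrays and -0.17 without vehicle replicate 5. The causes were not tested. Precision is limited by 5 mice a group, RNA of unequal integrity and 1 array that stands apart, and C5ar1 1422190_at is too dim to read.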
